A study of Caenorhabditis elegans with 2 samples.

Results

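CEC-7 peaks on chromosome III of Caenorhabditis elegans were taken as every region of the CEC-7 ChIP-seq peak list that lay on that chromosome. They numbered 974 of the 4116 peaks in the whole list, and none was removed. Each peak is a stretch of the genome in which sequenced fragments from the CEC-7 immunoprecipitate were called as enriched. Values of other chromosomes are given only to place those of III.

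The chromatin came from fem-2(b245) hermaphrodites kept at 20 °C, and the allele was carried by both libraries of the study, 1 of the CEC-7 ChIP and 1 of input DNA. No wild-type worms were among the groups. By the stage label these were germline-containing young adults, but the protocol for growth has the worms harvested when gravid, and embryos inside them would add chromatin. Whole worms were ground, so germ line and soma were pooled. The precipitating antibody was an affinity-purified rabbit polyclonal named for Y37D8A.11, the gene of CEC-7. The study has 1 ChIP library, the list gives no read counts, and depth is unknown. Comparisons between chromosomes therefore describe this list, carry no p-value and do not say how another precipitation would vary.

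CEC-7 is one of the chromodomain proteins of C. elegans. A chromodomain is a small fold that in several proteins binds histone tails methylated on lysine, and chromodomain proteins are found both in silent heterochromatin and over transcribed genes. The autosomes of the worm have centres rich in broadly expressed genes and arms that recombine more often and hold more repeats and more methylation of histone H3 on lysine 9. Both the mutated gene of the strain, fem-2, which encodes a phosphatase needed for male development, and cec-7 itself are on chromosome III. Whether the strain background had a part in the occupancy of III was not tested.

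Chromosome III was chosen for description as the most densely occupied autosome, so its top rank was set by that choice. It was covered more densely by CEC-7 than any other autosome in the list. Its peaks began at position 69269 and the last one ended at position 13766249 (WormBase assembly WS220, positions counted from 1), and together they spanned 3.32 Mb, or 24.1% of the 13.8 Mb up to that last base. Over the other 4 autosomes, I, II, IV and V, 13.4% of the bases lay inside a peak, a ratio of 1.80. The difference had a part in number and a part in size. III carried 70.8 peaks per Mb against 45.2 on the other autosomes, a ratio of 1.57, and its mean peak width was 3406 bp against 2965 bp, a ratio of 1.15.

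The other autosomes differed in how far they lay from III. Chromosome I was nearest to III, with 66.7 peaks per Mb and 20.98% coverage, so that III exceeded it by a factor of 1.06 in number of peaks and 1.15 in coverage. The distance to chromosome V was the widest, with a factor of 2.68 in number and 3.51 in coverage. Against I the excess in peak size (1.08 in mean width) was about that in number, whereas against II it was mostly one of number (1.43, with 1.07 in mean width). III exceeded IV by 1.56 in number and by 1.23 in mean width.

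Every full 1 Mb window of III was well covered. In its 13 full windows of 1 Mb, coverage ran from 17.1% to 33.8%, with a median of 23.6% and a mean of 24.3% ± 5.14 (SD over windows, n = 13). Chromosome I had a median of 21.6% but a wider spread, from 7.96% to 30.9% (SD 7.88, n = 15), so that the windows of I and III overlapped over much of their range. Chromosomes II, IV and V had medians of 17.7%, 13.9% and 7.41%, with SDs over windows of 6.28, 5.69 and 2.94. The highest window of V, 11.7%, was below the lowest of III. Of the 67 full windows on the other autosomes, 46 were covered less than the least covered window of III. Neighbouring windows are not independent, and these SDs describe unevenness along a chromosome, not error between worms.

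**Figure D1:**
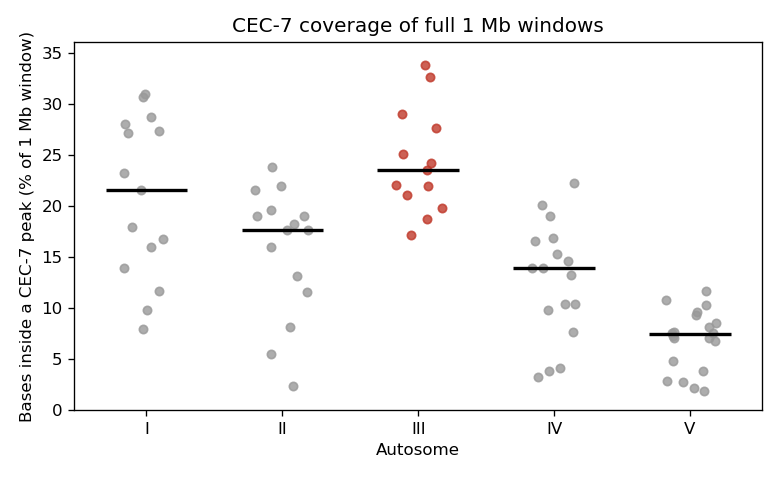
Percent of bases inside a CEC-7 peak (vertical axis) in each full 1 Mb window of the 5 autosomes (horizontal axis, 1 point per window, horizontal bar at the median). The 13 windows of III, in red, lie between 17.1% and 33.8%, whereas the windows of I reach down to 7.96% and all of V lie at or below 11.7%.

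At a finer scale no full 250 kb window of III was empty. In full windows of 250 kb, coverage on III ran from 5.42% to 41.8% with a median of 24.8% over 55 windows, and each held at least 7 peaks. On the other autosomes 9 of 272 such windows held no peak midpoint, 8 of them on V and 1 on IV. Fewer than 5% of bases were covered in 58 of the 272, against 0 of 55 on III. Most of the 58 were on V (33) and IV (14), with 9 on II. Chromosome I was close to III, with 2 of its 60 windows. Both extremes of III lay on its right side and close together. The window from 12500001 to 12750000 had 41 peaks and 41.8% coverage, and that from 13000001 to 13250000 had 7 peaks and 5.42% coverage.

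The centre of III had fewer but wider peaks than its sides. In the 3 equal segments of the chromosome, the central one (positions 4588751 to 9177499) held the fewest peaks, 289, and the left and right ones held 310 and 375. Its peaks were wider, with a median of 3642 bp (quartiles 2170 and 5465 bp) against 2286 bp on the left and 2175 bp on the right. Central peaks were wider on all 5 autosomes, and the ratio of central to outer median width was 1.63 on III, within the range of 1.37 (IV) to 1.64 (I) of the others. Peaks wider than 5 kb made up 31.1% in the centre, 18.7% on the left and 13.3% on the right. Despite fewer peaks the centre was the most heavily covered segment, at 27.3%, followed by 23.8% on the right and 21.2% on the left. This order depended on the division, because with 5 equal segments the middle one was covered to 25.1%, less than its left (25.9%) and right (27.7%) neighbours.

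The same contrast was measured as the ratio of the outer segments to the central one. On III the outer segments had 74.6 peaks per Mb and the centre 62.98, a ratio of 1.19. The same ratio lay between 0.92 (I) and 1.01 (II) for the other autosomes. The ratio of III fell to 0.95 among peaks with a score at or above the median of the whole list. The range given for the other autosomes is for all peaks, so 0.95 cannot be set against it. By covered bases the ratio on III was 0.83, below 1 as on the other autosomes, where it ran from 0.60 on I to 0.75 on IV. The central peaks of III also had the higher scores. The score is the authors' own value from the peak caller, its unit was not stated, and it serves here only to rank peaks within the list. Its median was 324 in the centre and 209 in the outer segments of III, and a central peak outscored an outer one in 60.1% of pairs, where 50% means no difference. On the other autosomes this percent was between 57.8% on IV and 64.9% on I.

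A pair of stretches shows the contrast. From 5 to 6 Mb, the most heavily covered of all full autosomal windows with 33.8%, III had 60 peaks, of which 30 were wider than 5 kb, and the medians were 4962 bp for width and 576 for score. From 11 to 12 Mb it had 106 peaks, of which 1 was wider than 5 kb, and the medians were 1878 bp and 198. The second window, with 23.6% coverage, had the rank 14 by coverage among the autosomal windows, although no window of III held more peaks. The windows from 8 to 9 Mb and from 4 to 5 Mb followed the first in coverage on III, with 32.6% from 86 peaks and 29.0% from 68 peaks. The least covered windows of III lay on the left, with 17.1% from 0 to 1 Mb, 18.7% from 2 to 3 Mb and 19.8% from 3 to 4 Mb. Across the 13 windows the number of peaks and the coverage had a Spearman correlation of 0.20, while the median width and the coverage had one of 0.66. These are descriptions over neighbouring windows of 1 library.

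**Figure D2:**
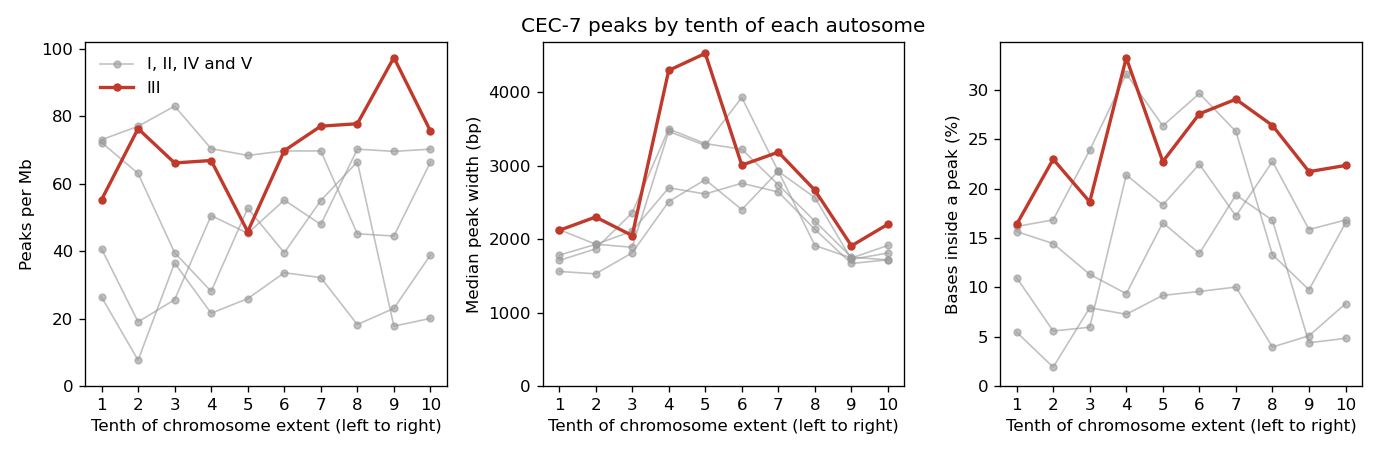
Peaks per Mb (left), median peak width in bp (middle) and percent of bases inside a peak (right) in 10 equal parts of each autosome, ordered from its left to its right end, with III in red and I, II, IV and V in grey. On III the number of peaks is lowest in part 5 (45.8 per Mb) and highest in part 9 (97.3 per Mb), while the median width is highest in parts 4 and 5 (4295 and 4526 bp) and lowest in part 9 (1908 bp).

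Divided into 10 equal parts, III held the highest of all 50 autosomal parts in each of these measures. Part 9 (positions 11013000 to 12389624) had 97.3 peaks per Mb, the highest number, followed by 82.9 per Mb in part 3 of chromosome I. Part 5 of III (5506501 to 6883124) had the highest median width, 4526 bp, and part 4 (4129876 to 5506500) the next, 4295 bp. The highest median width on another autosome was 3928 bp, in part 6 of II. Part 4 of III also had the highest coverage, 33.2%, with part 4 of I at 31.6%.

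Peaks on III were somewhat wider than elsewhere. Their median width was 2565 bp, with quartiles of 1662 and 4426 bp, against 2238 bp (1507 and 3779 bp) on the other autosomes. A peak of III was the wider one in 55.7% of pairs with a peak of another autosome, and in 52.8% of pairs with a peak of II, whose median of 2455 bp was the closest. III held 198 peaks wider than 5 kb, 20.3% of its peaks, against 13.9% on the other autosomes and 17.5% on I. These 198 peaks made up 43.8% of all covered bases of III. The widest 97 peaks, each of at least 6774 bp, made up 26.6%, and 51 of them lay in the central segment, 25 in the left and 21 in the right one.

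The scores followed the widths. The median score was 235 on III, with quartiles of 113 and 529, and 185 (95.5 and 405) on the other autosomes. A peak of III had the higher score in 56.2% of pairs with the other autosomes pooled. Singly the share was 54.2% with I, 53.4% with II, 58.0% with IV and 61.3% with V. Of the 974 peaks, 95 (9.75%) had a score of 1000 or more, against 5.16% on the other autosomes and 7.06% on I. At the low end, 20.8% of the peaks of III scored under 100, against 26.7%. Score and width had a Spearman correlation of 0.83 across the peaks of III, and of 0.78 to 0.83 on each of the other autosomes, so the comparison was repeated within classes of width cut at the autosomal quartiles. Among the narrowest peaks, up to 1536 bp, the median score of III was 78.0 against 78.8 elsewhere, and III was higher in 48.9% of pairs. In the 3 wider classes III was higher in 55.5%, 55.0% and 56.1% of pairs with the pooled autosomes. This did not hold for each of them, since the median of the second class was 159 on III and 161 on IV, and that of the third was 324 on III and 327 on II. Among peaks of at least 3911 bp the median score was 720.1 on III (300 peaks) and 625 on the other autosomes (719 peaks). Singly these ran from 527.7 on V to 682.7 on I. The class has no upper limit, so width still differed within it. Of the 300 peaks, 198 were wider than 5 kb, and of the 719, 431.

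Scores were lower again among the broadest peaks. On III the median score rose from 95.5 in peaks of at most 2 kb to 327 at 2 to 5 kb, 900 at 5 to 7.5 kb and 983 at 7.5 to 10 kb, but was 643 in the 23 peaks over 10 kb. The other autosomes showed the same fall, from 816 at 7.5 to 10 kb to 372 in 42 peaks over 10 kb. In those 23 the scores ran from 120 to 2239. The 3 widest peaks of III were a 17.0 kb peak (5163388 to 5180386, score 333), a 16.2 kb peak (5587108 to 5603321, score 260.1) and a 15.9 kb peak (8371891 to 8387810, score 168). All 3 were central, and the last of them scored below the median of the chromosome. The next 2 in width scored higher, with 1058 for a 14.4 kb peak (9514026 to 9528427) and 1178 for a 13.4 kb peak (7221386 to 7234804). Of the 198 peaks wider than 5 kb on III, 14 (7.07%) scored below the median of the whole list, 196. The share was 9.98% on the other autosomes. Of the 14, 7 lay in the centre, which held 90 of the 198.

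**Figure D3:**
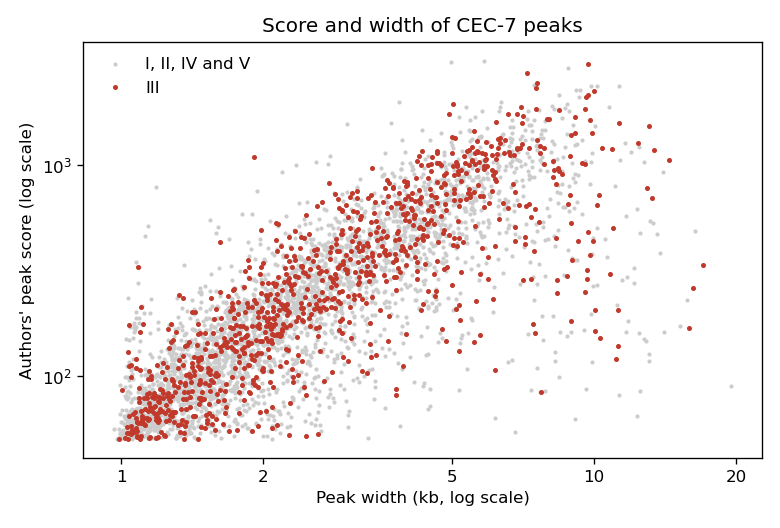
The authors' peak score (vertical, log scale) against peak width in kb (horizontal, log scale), 1 point per autosomal peak, with III in red and I, II, IV and V in grey. Scores climb with width up to about 10 kb, and then spread to lower values on III and on the other autosomes alike. The 3 widest peaks of III, at 15.9 to 17.0 kb, have scores of 168 to 333.

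The reverse case, a narrow peak with a high score, was rare. Among the peaks of III narrower than 2 kb, 1 scored over 500. It spanned 10505494 to 10507402 on the right side, was 1909 bp wide and scored 1093, with neighbours 835 bp to its left and 1193 bp to its right. This peak was singled out after its value had been seen. The other autosomes together had 7 such peaks. The narrowest peaks of III were 989 bp (11987064 to 11988052), 1002 bp (4003844 to 4004845) and 1017 bp (7709758 to 7710774), with scores of 50.1, 86.0 and 50.8. The first of these also had the lowest score of the chromosome, close to the lowest of the list.

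The 10 highest-scoring peaks of III were all broad, from 5027 to 10001 bp, with scores of 1844 to 3013. None lay in the right segment, 6 lay in the centre and 4 on the left. The highest, with 3013, was a 9.69 kb peak at 5449620 to 5459312. The peak after it, at 5460842 to 5468390 (7.55 kb, score 2318), had the rank 4 by score on III and was separated from it by 1529 bp. A 9.60 kb peak at 5308492 to 5318093 (score 2090) lay in the same Mb, and a 9.70 kb peak at 4602215 to 4611909 (score 2135) and a 7.21 kb peak at 4991150 to 4998361 (score 2738) lay in the Mb before it.

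The remaining 5 were spread more widely. A 7.57 kb peak at 3417069 to 3424634 (score 2449) had 31.2 kb free of peaks to its right. A 10.0 kb peak at 8225201 to 8235201 (score 2239) had 31.7 kb free to its left. On the left segment a 5.03 kb peak at 1087097 to 1092123 (score 1950.2) was followed by the next peak after 8 bp, and a 7.02 kb peak at 4256480 to 4263502 (score 1879) after 110 bp. A 9.56 kb peak at 1032354 to 1041909 (score 1844) had a neighbour 237 bp to its left. In all, 8 of the 10 had another peak within 2 kb. Among the 100 highest scores of III, 79 did, close to the 76.1% of all its peaks, and 47 were central, 30 left and 23 right.

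Peaks of III stood close together. III was chosen for its dense occupancy, and shorter gaps, more runs and fewer isolated peaks go with a higher density. The measures of spacing, long gaps, runs and isolation given from here on are therefore not independent of that choice. The median gap from the end of a peak to the start of the next was 1914 bp (quartiles 525 and 11251 bp, 973 gaps), against 2749 bp on the other autosomes pooled and 2348 bp on I, the nearest of them. The ratio of these medians, III to the pooled others, was 0.70, and 0.45 among peaks with a score at or above the list median. Of the peaks of III, 87.9% had another within 5 kb and 76.1% within 2 kb. The shares on the other autosomes were 81.7% and 66.9%.

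The excess of short gaps was one of intermediate sizes. Gaps under 500 bp made up 24.0% on III and 23.2% on the other autosomes pooled. Singly the others had 25.4% (I), 24.3% (II), 24.0% (IV) and 16.2% (V). Gaps of 500 bp to 2 kb made up 26.6% on III, against 21.6% on I and 17.7% to 21.3% on the rest. Gaps of 20 kb or more made up 17.2% on III, and from 18.5% (I) to 38.1% (V) elsewhere. A gap of a few bases separates regions that the peak caller reported apart, and 36 gaps of III (3.70%) were under 50 bp, against 3.68% on the other autosomes.

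**Figure D4:**
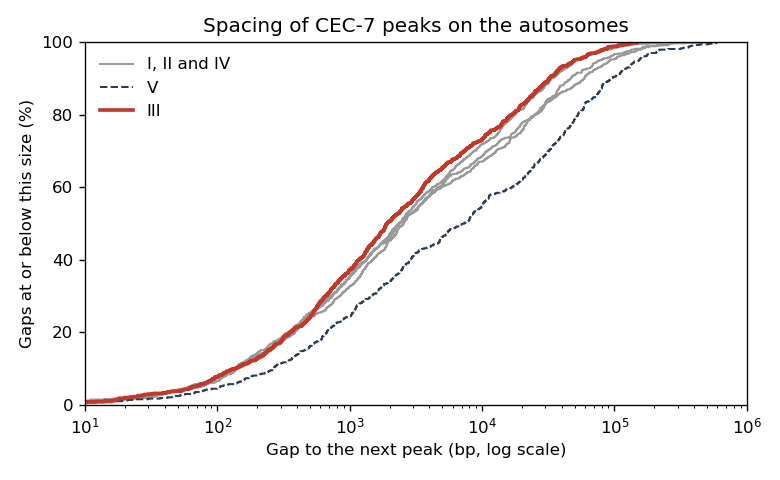
Cumulative percent of gaps between neighbouring CEC-7 peaks (vertical) up to a given size in bp (horizontal, log scale), with 1 line per autosome, III in red, I, II and IV in grey and V dashed. The line of III runs with those of I, II and IV below 500 bp, lies above them from 1 kb to 10 kb, and crosses 50% at 1914 bp.

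Few long stretches of III lacked a peak. The 3 longest gaps were 149 kb at 1625991 to 1775186, 133 kb at 12977861 to 13110564 and 131 kb at 6734101 to 6865190. Elsewhere the longest gap of a chromosome was between 257 kb (I) and 592 kb (V). Chromosome I had 5 gaps longer than the longest of III, II had 13, IV had 17 and V had 28. Gaps over 50 kb took up 28.1% of III. The share was 32.1% for I, 49.2% for II, 58.0% for IV and 71.8% for V.

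When peaks were joined across gaps of at most 2 kb, III fell into 481 units, of which 233 were single peaks and 248 were runs of 2 or more. The runs held 741 peaks, or 76.1%, compared with 69.1% to 70.1% for I, II and IV, and 54.5% for V. These are by definition the peaks with a neighbour within 2 kb, so the share repeats the one given above. There were 123 pairs, 61 runs of 3, 32 runs of 4 and 32 runs of 5 or more peaks. Runs occurred 18.0 times per Mb on III, 15.5 times on I and 5.47 times on V. The runs were densely filled, and the median run spanned 9.66 kb with 89.4% of its bases inside a peak.

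Long runs were most numerous on the right. The right segment held 16 of the 32 runs of 5 or more peaks, the left 10 and the centre 6. It also held the most runs of any size, 100, with 78 on the left and 70 in the centre. The right, left and central segments held 38.5%, 31.8% and 29.7% of the peaks of III. The runs of any size were thus spread much as the peaks were. The runs with the most peaks were 2 of 8 peaks, at 11141768 to 11167566 (25.8 kb, top score 633) and at 11752202 to 11774449 (22.2 kb, top score 817). Runs of 7 peaks included 13432817 to 13465744 (32.9 kb, top score 759), which had the longest span of any run on III, 9808733 to 9836785 (28.1 kb, top score 465) and 2603805 to 2622815 (19.0 kb, top score 554). No peak of these 5 runs reached a score of 1000. Peaks in runs of 5 or more had a median width of 2197 bp, and 12.0% of them were wider than 5 kb, against 2848 bp and 25.3% for peaks in no run. Their median scores were 219 and 249. The change with run size was not steady, since peaks in runs of 3 or 4 had medians of 2771 bp and a score of 257, and peaks in pairs had 2405 bp and 217. Chromosomes I and IV had runs of up to 12 and 11 peaks, above the 8 of III. Joined across gaps of up to 5 kb instead, III had the run with the most peaks of any autosome, 22 over 84.4 kb. The most elsewhere was 16. III then had 219 runs to the 234 of I, or 15.9 per Mb against 15.5.

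Isolated peaks were scarce on III. With no other peak within 20 kb on either side, 30 peaks (3.08%) counted as isolated, against 3.38% for I and 5.31%, 6.31% and 15.5% for II, IV and V. Their median width was 3075 bp and that of the other peaks of III 2537 bp. Their median scores were 222 and 235, and 8 of the 30 were wider than 5 kb. With a distance of 10 kb, 78 peaks were isolated and the order of the median scores turned, with 263 for these and 234 for the others. The most isolated was a 4.22 kb peak at 1299254 to 1303473 (score 313), with 88.7 kb free of peaks on its left and 107 kb on its right. The next were a 5.25 kb peak at 3175430 to 3180675 (score 840.5), whose nearer neighbour was 65.3 kb away, and a 2.11 kb peak at 9322441 to 9324550 (score 157), whose nearer neighbour was 62.8 kb away.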

How the data were processed

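The peak list of the CEC-7 ChIP library was used as deposited, and no processed file of the input library was analysed here. The assembly was WormBase WS220 and the caller MACS, per the file headers and source field. The submitters' processing notes name BWA and ce10, which is the UCSC name of that assembly. No source used here gives tool versions, read filters or whether the input served as control. The deposited list holds a start and an end (1-based) for each peak and a score by the authors' peak caller, with no unit stated.

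From these values, widths, gaps, coverage (bases inside a peak over the extent from base 1 to the end of the last peak), windows with covered bases split exactly, equal segments by peak midpoint, and runs were computed with Python 3.11.15, numpy 2.4.6, pandas 2.3.3 and scipy 1.17.1, and drawn with matplotlib 3.10.9. The calculations were tested on simulated data. A threshold on the score or any difference in read mapping between chromosomes would change which peaks are listed. Regions named on III were the 10 highest-scoring, 5 widest, 3 narrowest and 3 most isolated peaks, the 3 longest gaps, the 5 runs with most peaks (ties broken by longer span, which left out 1 of the 4 runs of 7 peaks), and the 3 most and 3 least covered windows of 1 Mb. The members, lists and measures were chosen with earlier results of these data known. Gene context and sequence of the peaks were not analysed here, because the gene table at hand is of another assembly; it served only to look up the chromosome of fem-2 and cec-7.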

Additional observations from a re-analysis of the deposited data

How the results depend on the processing

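Of 50 alternative values, 41 kept their direction and moved by less than the spread, which was 1 SD between the 4 other autosomes for ratios, correlations and percents of pairs, or the 95% Wilson interval for shares of peaks (counting error only). That SD is wide, mainly through chromosome V. The ratio of peak density, III to the other autosomes, ranged from 1.33 without V to 1.86 among peaks at or above the list median score, and that of coverage from 1.48 without V to 2.14 without I. The ratio of median gaps, 0.70, ranged from 0.45 among peaks at or above the list median score to 0.78 without V. The ratio of median widths, 1.15, became 1.25 after merging peaks within 1000 bp. The ratio of outer to inner peak density on III, 1.19, was 1.13 with 5 segments. It reversed to 0.83 by covered bases and to 0.95 among peaks at or above the list median score, so the excess of outer peaks was not seen among the better-scored peaks or in bases. With other distances, 76.1% of peaks had a neighbour within 2 kb and 92.0% within 10 kb, 60.2% lay in runs at gaps of at most 1 kb and 87.9% at 5 kb, and 8.01% were isolated at 10 kb, changes that the distances set by construction. At any 1 distance the share of peaks with a neighbour and the share in runs are the same count. No paired analysis was possible because the CEC-7 ChIP had a single library. Occupancy weaker than the authors' cutoff was not detectable.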
